A study of Mus musculus with 11 samples.

Results

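The receptors, ligands and processing proteins of the Notch pathway were followed in mouse Leydig tumor cells with a knockdown of *Mamld1*. The members were 9 genes, chosen by name: the receptors *Notch1*, *Notch2*, *Notch3* and *Notch4*, the ligands *Jag1*, *Jag2* and *Dll1*, the receptor-cutting protease *Adam10*, and the Notch inhibitor *Numb*. All probes of these genes on the array were used, which gave 13 of 41174 probes. Of these, 10 probes of 7 genes passed the filter on dim signals and were tested among 24250 tested probes.

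The cells were MLTC-1, an established mouse Leydig tumor cell line. They received non-targeting control RNA (4611G; control, 4 arrays), siRNA1 against *Mamld1* (4 arrays) or siRNA2 against *Mamld1* (3 arrays), each at 20 nM with Lipofectamine RNAiMAX. Total RNA was taken 48 hours after transfection, and 300 ng of it was labeled with Cy3 for 1-color Agilent arrays. The study's methods place the RNA harvest at the end of a treatment of the cells with human chorionic gonadotropin, which the labels do not name, so all 3 groups would share it. All results come from this tumor line and transient transfection, and no label says whether arrays of a group came from separate cultures, so the p-values measure the spread between these arrays only.

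Notch receptors are single-pass membrane proteins that are bound by Jagged and Delta-like ligands on a neighboring cell. Ligand binding lets Adam10 cut the receptor outside the membrane, after which the gamma-secretase complex cuts it within the membrane. The freed intracellular part enters the nucleus, joins the DNA-binding protein Rbpj and a Mastermind-like coactivator, and switches on genes such as those of the Hes and Hey repressors. Numb counters the pathway by promoting the endocytosis and breakdown of Notch. *Mamld1* is named for its similarity to the Mastermind-like coactivators, and in the testis Notch signaling is known to restrain the differentiation of fetal Leydig cells from their progenitors.

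Levels are given as the array signal after scaling to the 75th percentile of the array, in percent of the control level (the geometric mean over the 4 arrays with non-targeting RNA), for each probe on its own. Levels of different probes were not compared with each other. Differences are log2 differences with their standard error (SE) from a limma fit over all 11 arrays. A probe passed at an adjusted p of 0.05 or less, with the Benjamini-Hochberg adjustment over all 24250 tested probes. For single probes a two-sided exact permutation test over the arrays was added, whose smallest possible p is 0.0286. Because the RNA came from whole cultures, fewer cells expressing a gene and less RNA per cell cannot be told apart.

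The arrays had a 75th percentile signal of 470 to 582 in the control group, 601 to 774 with siRNA1 and 488 to 579 with siRNA2, and 58.6 to 62.6% of spots were well above background. The only tested probe of *Mamld1* itself fell by 0.93 on the log2 scale with siRNA1 (SE 0.20, adjusted p = 0.00571), to a level of 54.0% ± 15.4 (SD, n = 4), and by 0.77 with siRNA2 (SE 0.22, adjusted p = 0.0309), to 59.8% ± 12.6 (SD, n = 3). All 7 Leydig cell markers were above background on all 11 arrays. Of their 9 tested probes, 2 passed as lower with siRNA1 (22.2%, beside 27.0% of all tested probes) and 1 with siRNA2 (11.1%, beside 18.4%). These were *Cyp17a1* with both siRNAs (-0.92, adjusted p = 0.000216, and -0.48, adjusted p = 0.0237) and *Lhcgr* with siRNA1 (-0.63, adjusted p = 0.00285). Between the siRNAs, 4 were lower with siRNA1 (44.4%, beside 23.5%). Markers of other cell types were partly present. *Amh* and *Dhh* (Sertoli cells) and *Cdh5* (endothelium) were above background on all arrays, and *Fshr* (Sertoli cells), *Pecam1* (endothelium) and *Csf1r* (macrophages) on some, *Csf1r* on 3 of 4 control arrays by 2 of its probes. *Sox9* (Sertoli cells), *Kdr* and *Tek* (endothelium), and *Adgre1* and *Ptprc* (macrophages) were above background on no array.

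Among the members, 3 genes had a probe that passed in at least 1 comparison. The share of member probes that passed was 10% with siRNA1, 20% with siRNA2 and 20% between the siRNAs. Of all tested probes, 27.0%, 18.4% and 23.5% passed in these comparisons. *Notch4* was lower with both siRNAs. *Jag1* was lower with siRNA2, and its decrease with siRNA1 did not pass. *Notch2* differed between the siRNAs by 2 of its 3 probes, higher with siRNA1 than with siRNA2. The remaining tested members, *Notch3*, *Dll1*, *Adam10* and *Numb*, passed in none of the 3 comparisons, and *Notch1* and *Jag2* could not be tested.

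With siRNA1, 1 of the 10 member probes passed (10%), in the direction of a decrease, where 27.0% of all tested probes passed, 15.2% as lower and 11.8% as higher. With siRNA2, 2 member probes passed (20%), both lower, where 18.4% of all tested probes passed, 10.7% as lower and 7.70% as higher. Between siRNA1 and siRNA2, 2 member probes passed (20%), both higher with siRNA1, where 23.5% of all tested probes passed, 11.7% as higher and 11.8% as lower. The members' share lay below the background with siRNA1, where it rests on 1 probe, and near it in the other comparisons. With the slide as a block, *Jag1*, *Dll1* and the *Notch2* probe A_52_P289213 passed with siRNA1 beside *Notch4*, where 35.8% of all tested probes passed. The share was then not below the background. The arrays of the groups did not overlap for 2 of the 10 member probes with siRNA1 (29.1% of all tested probes), 3 with siRNA2 (28.0%) and 2 between the siRNAs (31.3%). No member passed with a fold change of at least 2, the minimum of the study's methods, which 2.99% of all tested probes did with siRNA1, 2.25% with siRNA2 and 3.36% between the siRNAs. The largest member difference in any comparison was 0.57 on the log2 scale. The median log2 difference of the member probes was 0.11 with siRNA1 and 0.035 with siRNA2, beside -0.048 and -0.0082 over all tested probes. Both siRNA comparisons share the same 4 control arrays, so their values are given side by side and are not independent.

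**Figure D1:**
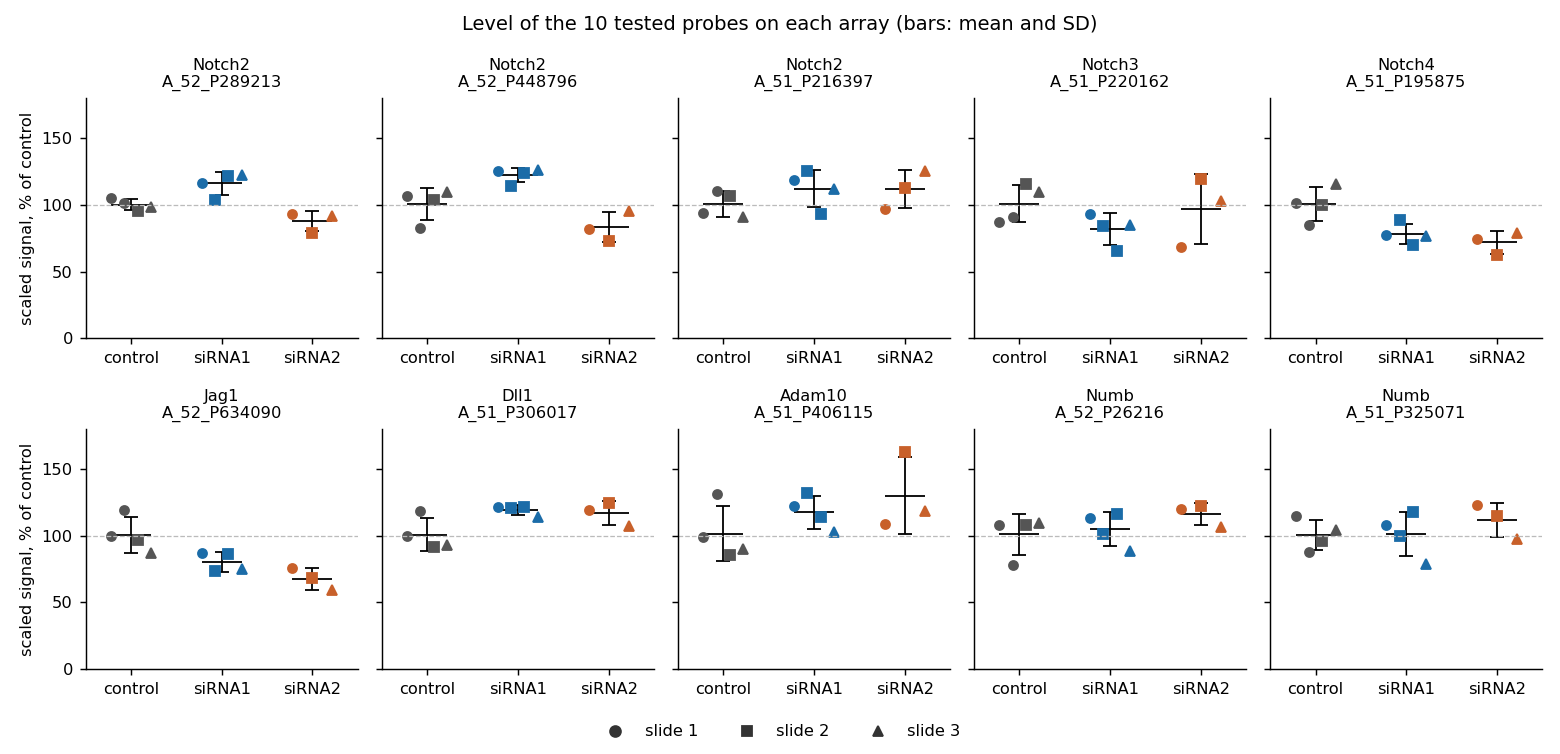
Level of each of the 10 tested member probes on each array, in percent of the control mean (y axis), by group (x axis). Each point is 1 array with its shape giving the slide, and the bars are the mean and SD. The siRNA2 points of *Notch4* (62.3 to 78.7%) and *Jag1* (59.0 to 75.4%) lie below all control points.

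The promoters of *Jag1*, *Notch4* and *Notch2* are shown because these members had a probe that passed. They are the 250 bases before the RefSeq start on GRCm38.p6, read 5′ to 3′ on the strand of the gene. All 9 members had a promoter in RefSeq, in 12 windows. The windows were searched on both strands for the Rbpj core TGGGAA, the Hey-bound E-box CACGTG, the Hes-bound class C site CACGCG and the Nr5a1 site CAAGGTCA, and matches are in capitals. *Jag1* lies on the minus strand (chr2:137116521-137116770), *Notch4* on the plus strand (chr17:34564045-34564294) and *Notch2* on the plus strand (chr3:98013288-98013537).
Jag1: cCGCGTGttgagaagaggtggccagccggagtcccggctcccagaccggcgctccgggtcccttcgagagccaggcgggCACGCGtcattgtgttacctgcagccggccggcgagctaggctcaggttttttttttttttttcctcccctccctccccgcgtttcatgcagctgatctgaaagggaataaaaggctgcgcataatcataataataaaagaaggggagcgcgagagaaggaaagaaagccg
Notch4: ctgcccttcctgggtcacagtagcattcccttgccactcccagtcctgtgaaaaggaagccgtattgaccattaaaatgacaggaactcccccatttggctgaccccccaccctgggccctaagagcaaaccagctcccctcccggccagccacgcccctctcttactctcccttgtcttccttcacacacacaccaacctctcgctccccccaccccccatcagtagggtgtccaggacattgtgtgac
Notch2: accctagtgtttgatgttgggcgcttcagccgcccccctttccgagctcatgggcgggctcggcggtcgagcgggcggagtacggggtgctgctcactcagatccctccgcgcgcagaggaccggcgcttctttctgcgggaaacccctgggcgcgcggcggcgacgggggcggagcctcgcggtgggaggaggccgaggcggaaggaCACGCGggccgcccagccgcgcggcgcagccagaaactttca
The *Jag1* window holds the class C site 2 times, once on each strand, the *Notch2* window holds it 1 time, 42 to 37 bases before the start, and the *Notch4* window holds none of the 4 motifs. Among the other members, *Dll1* holds the class C site in 1 of its windows and *Adam10* holds the E-box. Of all 32851 windows of the same length, 7.62% hold the class C site and 6.02% the E-box. The Rbpj core was in none of the 12 member windows and in 21.6% of all windows, and the Nr5a1 site was in none of the 12 and in 1.33% of all. These are letter matches in a short window and were not set against any binding data.

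*Notch4*, the receptor known for its expression in endothelium, had 1 probe (A_51_P195875). All 11 arrays measured it well above background. On the control arrays it stood at 102, 85.2, 99.9 and 116%. The siRNA1 arrays stood at 77.4, 88.4, 69.9 and 76.5%. The siRNA2 arrays stood at 74.6, 62.3 and 78.7%. All siRNA2 arrays lay below all control arrays, while siRNA1 array 2 lay above control array 2. The control mean was 101% ± 12.5 (SD, n = 4). The mean was 78.1% ± 7.65 (SD, n = 4) for siRNA1, and it was 71.9% ± 8.51 (SD, n = 3) for siRNA2.

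*Notch4* fell by 0.36 on the log2 scale with siRNA1 (SE 0.12, adjusted p = 0.0401, exact permutation p = 0.0571). It fell by 0.48 with siRNA2 (SE 0.13, adjusted p = 0.0210, exact permutation p = 0.0571). The difference between the siRNAs was 0.12 (95% interval -0.16 to 0.40, adjusted p = 0.538). On each of the 3 slides both siRNAs were below control, by -0.26, -0.35 and -0.60 with siRNA1 and by -0.32, -0.68 and -0.56 with siRNA2. Both decreases also passed with the slide as a block (adjusted p = 0.0378 and 0.0170).

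The *Notch4* decreases depended on single arrays. That of siRNA1 no longer passed without control 1 (adjusted p = 0.0805), control 3 (0.0784), control 4 (0.111), siRNA1 array 1 (0.0776), siRNA1 array 3 (0.115) or siRNA1 array 4 (0.0797), with differences between -0.29 and -0.36. That of siRNA2 no longer passed without control 4 (-0.41, adjusted p = 0.0547) or without siRNA2 array 2 (-0.38, adjusted p = 0.102). Scaling to the array median also ended the siRNA1 call (-0.32, adjusted p = 0.101), and testing all probes without the filter on dim signals ended both (adjusted p = 0.0825 and 0.0539). With normexp background correction the differences were 0.13 (adjusted p = 0.773) and -0.022 (adjusted p = 0.973), so the siRNA1 sign changed and neither call was kept. That setting moved the median of all tested probes to 0.22 with siRNA1 and 0.17 with siRNA2. Only 1.57% and 0.507% of all tested probes passed with it.

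Endothelial and Sertoli cell markers were set beside the *Notch4* values. Of the 4 endothelial markers, *Cdh5* (VE-cadherin) was above background on all 11 arrays and was higher with both siRNAs by its 2 probes, by 1.22 and 0.94 with siRNA1 and by 0.84 and 0.84 with siRNA2 (adjusted p = 0.00436 or lower). The summed level of the list was 0.805 to 0.882 times the array's 75th percentile in control, 1.61 to 2.18 with siRNA1 and 1.41 to 1.70 with siRNA2. Nearly all of this sum was *Cdh5*, whose probes had mean signals of 645 and 181 with siRNA2, beside 7.10 for *Pecam1*. *Kdr* and *Tek* were above background on no array. Of the 4 Sertoli cell markers, *Amh* and *Dhh* were above background on all arrays and *Dhh* was higher by 0.72 with siRNA2 (SE 0.11, adjusted p = 0.00103). That list's sum was 2.72 to 3.04 in control, 2.45 to 3.04 with siRNA1 and 4.22 to 5.09 with siRNA2. It was mostly *Dhh*, with a mean signal of 2397 with siRNA2, beside 95.8 for *Amh*. *Amh* passed with neither siRNA (-0.31, adjusted p = 0.266 with siRNA1, and 0.030, adjusted p = 0.952 with siRNA2). The part of these markers in the member results was not tested.

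*Jag1*, which encodes a ligand of several Notch receptors that is anchored in the membrane of the neighboring cell, had 2 probes, of which 1 (A_52_P634090) was measured above background throughout. The control arrays stood at 99.9, 119, 96.5 and 86.9%. With siRNA1 it was 86.9, 73.3, 86.2 and 74.7%. With siRNA2 it was 75.4, 68.4 and 59.0%. The siRNA2 arrays lay below all control arrays with a gap, and the siRNA1 arrays reached up to the lowest control array. The means were 101% ± 13.7 (SD, n = 4), 80.3% ± 7.25 (SD, n = 4) and 67.6% ± 8.22 (SD, n = 3) for control, siRNA1 and siRNA2.

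*Jag1* fell by 0.57 on the log2 scale with siRNA2 (SE 0.13, adjusted p = 0.00936, exact permutation p = 0.0286), and this passed without each of the 11 arrays in turn. It did not pass with normexp background correction (-0.40, adjusted p = 0.502), where 0.507% of all tested probes passed. With siRNA1 the difference was -0.32 (SE 0.12, adjusted p = 0.0658, exact permutation p = 0.0286) and did not pass. The difference between the siRNAs was 0.25 (95% interval -0.030 to 0.53, adjusted p = 0.189), so the siRNAs were not shown to differ. Within slides the siRNA2 differences were -0.53, -0.50 and -0.56, and those of siRNA1 were -0.33, -0.28 and -0.22. With the slide as a block the siRNA1 difference was -0.28 and passed (adjusted p = 0.0282), and it also passed without control 4 (-0.39, adjusted p = 0.0448). The other *Jag1* probe (A_51_P280906) was well above background on no array, with signals of 1.74 to 7.62, so it gave no second reading of the gene.

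**Figure D2:**
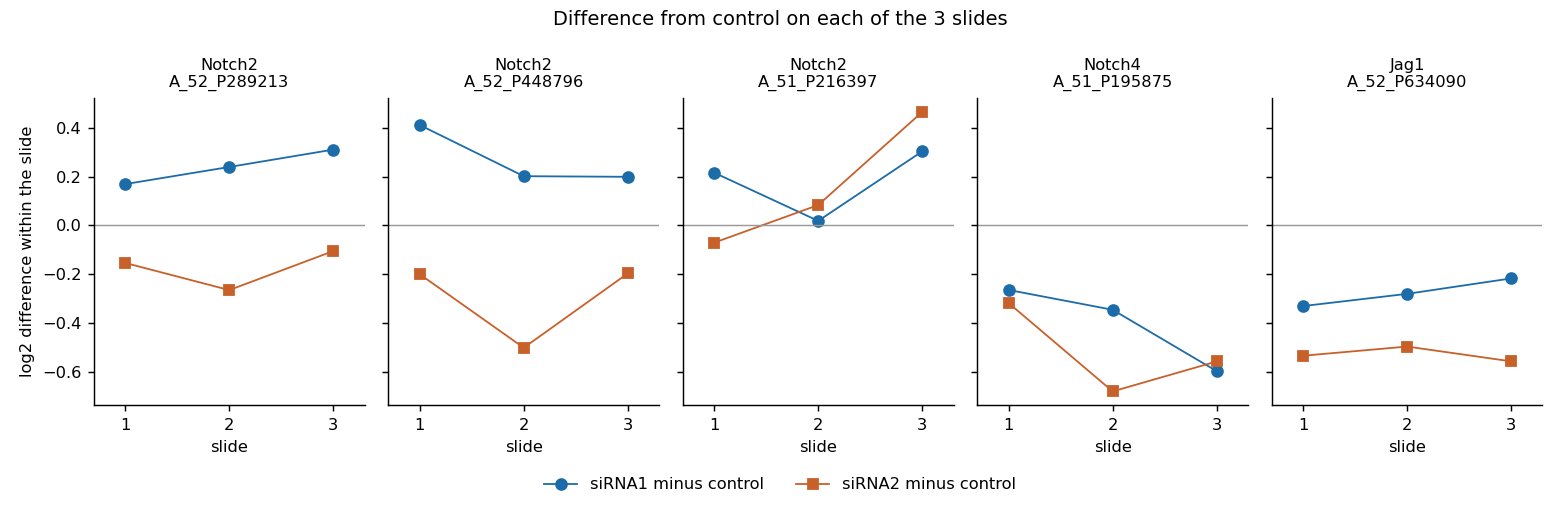
Log2 difference from control within each of the 3 slides (x axis) for the probes of *Notch2*, *Notch4* and *Jag1*, with siRNA1 in blue and siRNA2 in orange. *Notch4* and *Jag1* lie below 0 on every slide with both siRNAs, and the first pair of *Notch2* probes lies above 0 with siRNA1 and below 0 with siRNA2.

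*Notch2*, a receptor expressed in many tissues, had 3 probes, all measured above background throughout. By the brightest probe (A_52_P289213) the control arrays were at 105, 102, 95.1 and 98.6%. With siRNA1 the level was 116, 104, 122 and 122%. With siRNA2 it was 92.8, 79.2 and 91.7%. The 4 siRNA1 arrays all lay above the 3 siRNA2 arrays. The control arrays lay above all siRNA2 arrays, and 1 of them lay within the siRNA1 range. By the next brightest probe (A_52_P448796) the siRNA1 arrays (114 to 126%) again lay above the siRNA2 arrays (73.0 to 95.6%), with control at 83.0 to 110%.

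The difference between siRNA1 and siRNA2 was 0.40 by the brightest *Notch2* probe (SE 0.093, adjusted p = 0.00917, exact permutation p = 0.0286). It was 0.56 by the next (SE 0.12, adjusted p = 0.00606, exact permutation p = 0.0286). Neither probe passed against control: with siRNA1 the differences were 0.21 (adjusted p = 0.0949) and 0.29 (adjusted p = 0.0779), and with siRNA2 they were -0.19 (adjusted p = 0.198) and -0.27 (adjusted p = 0.155). Within the slides the siRNA1 to siRNA2 difference was 0.32, 0.50 and 0.42 by the brightest probe and 0.61, 0.70 and 0.40 by the next. The difference by the brightest probe did not pass without siRNA2 array 2 (0.33, adjusted p = 0.0511). With normexp background correction, neither probe's difference between the siRNAs passed (adjusted p = 0.977 for each), where 0.334% of all tested probes passed. With the slide as a block, the siRNA1 difference of the brightest probe from control passed (0.24, adjusted p = 0.0315).

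The dimmest *Notch2* probe (A_51_P216397) did not share this pattern. Its level was 90.6 to 111% in control, 93.1 to 125% with siRNA1 and 96.9 to 125% with siRNA2, and the groups overlapped. Its siRNA1 to siRNA2 difference was 0.0048 (95% interval -0.28 to 0.29, adjusted p = 0.985). Averaged over the 3 probes of the gene, the difference was 0.32 (SE 0.076, adjusted p = 0.00823) and that of siRNA1 against control was 0.22 (SE 0.070, adjusted p = 0.0342).

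*Notch3*, the receptor known from vascular smooth muscle, had 1 probe (A_51_P220162). Its level was 87.1, 90.9, 116 and 109% on the control arrays, 92.8, 84.3, 65.2 and 84.7% with siRNA1, and 68.5, 120 and 103% with siRNA2. The groups overlapped, and the siRNA2 arrays alone spanned the whole control range. The differences were -0.30 with siRNA1 (95% interval -0.69 to 0.088, adjusted p = 0.239) and -0.080 with siRNA2 (95% interval -0.50 to 0.34, adjusted p = 0.843).

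*Notch1*, the receptor known for its mutations in T-cell leukemia, could not be measured. Its probe (A_52_P183088) had signals of 2.00 to 6.85 in control, 5.44 to 6.75 with siRNA1 and 1.87 to 2.46 with siRNA2, and was well above background on no array. The lowest signal that the scanner software called well above background was 6.94 to 8.90 per array. No fold change is given for this gene.

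*Jag2*, the second Jagged ligand, lay at the edge of detection. Its probe (A_51_P451338) had signals of 3.58 to 11.2. These were called well above background in 1 of 4 control samples, in 2 of 4 samples with siRNA1 and in 1 of 3 with siRNA2, so the gene was not tested.

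**Figure D3:**
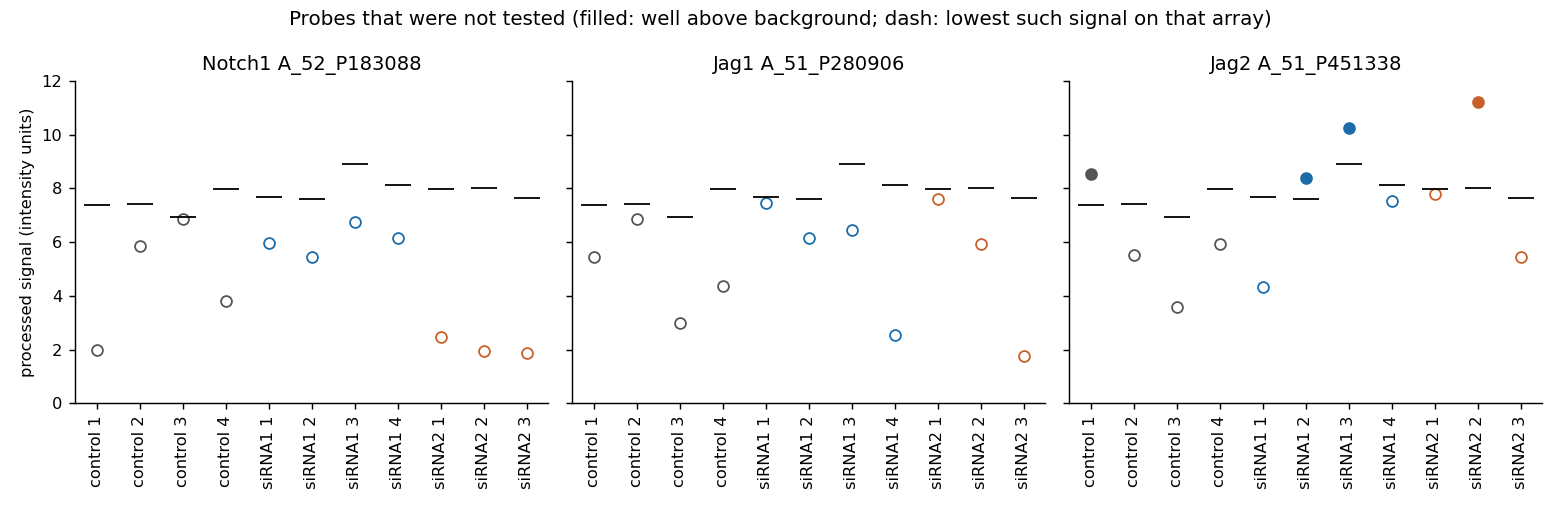
Processed signal (y axis, intensity units) of the 3 untested member probes on each array (x axis). Filled points were called well above background, open points were not, and dashes give the lowest signal with that call on the array; *Notch1* and the second *Jag1* probe have no filled point, and *Jag2* has 4.

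*Dll1*, a Delta-like ligand, had 1 probe printed on 10 spots (A_51_P306017), whose mean was used. Its level was 99.5, 118, 91.2 and 93.1% on the control arrays. With siRNA1 it was 122, 120, 122 and 114%, and with siRNA2 it was 119, 124 and 107%. Control array 2 lay within the range of both siRNA groups, and the other control arrays lay below all siRNA arrays. The differences of 0.26 with siRNA1 (SE 0.095, adjusted p = 0.0694) and 0.22 with siRNA2 (SE 0.10, adjusted p = 0.167) did not pass. Without control 2 both passed (0.34, adjusted p = 0.0147, and 0.30, adjusted p = 0.0408), and with the slide as a block the siRNA1 difference passed (0.28, adjusted p = 0.0307).

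*Adam10*, the protease that makes the first ligand-dependent cut, had 1 probe (A_51_P406115). Its level was 85.7 to 131% in control, 102 to 132% with siRNA1 and 109, 163 and 118% with siRNA2. The groups overlapped, and siRNA2 array 2 was the highest of all arrays. The differences were 0.23 with siRNA1 (95% interval -0.12 to 0.58, adjusted p = 0.329) and 0.36 with siRNA2 (95% interval -0.025 to 0.74, adjusted p = 0.196).

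*Numb* had 2 probes (A_52_P26216 and A_51_P325071), both with overlapping groups. By the brighter probe the level was 78.3 to 109% in control, 88.3 to 117% with siRNA1 and 107 to 122% with siRNA2. The differences were 0.060 and 2.2e-05 with siRNA1 and 0.21 and 0.16 with siRNA2, and the 95% intervals spanned -0.30 to 0.35 for siRNA1 and -0.17 to 0.52 for siRNA2. The adjusted p-values of *Numb* were 0.356 or higher in both comparisons with control.

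**Figure D4:**
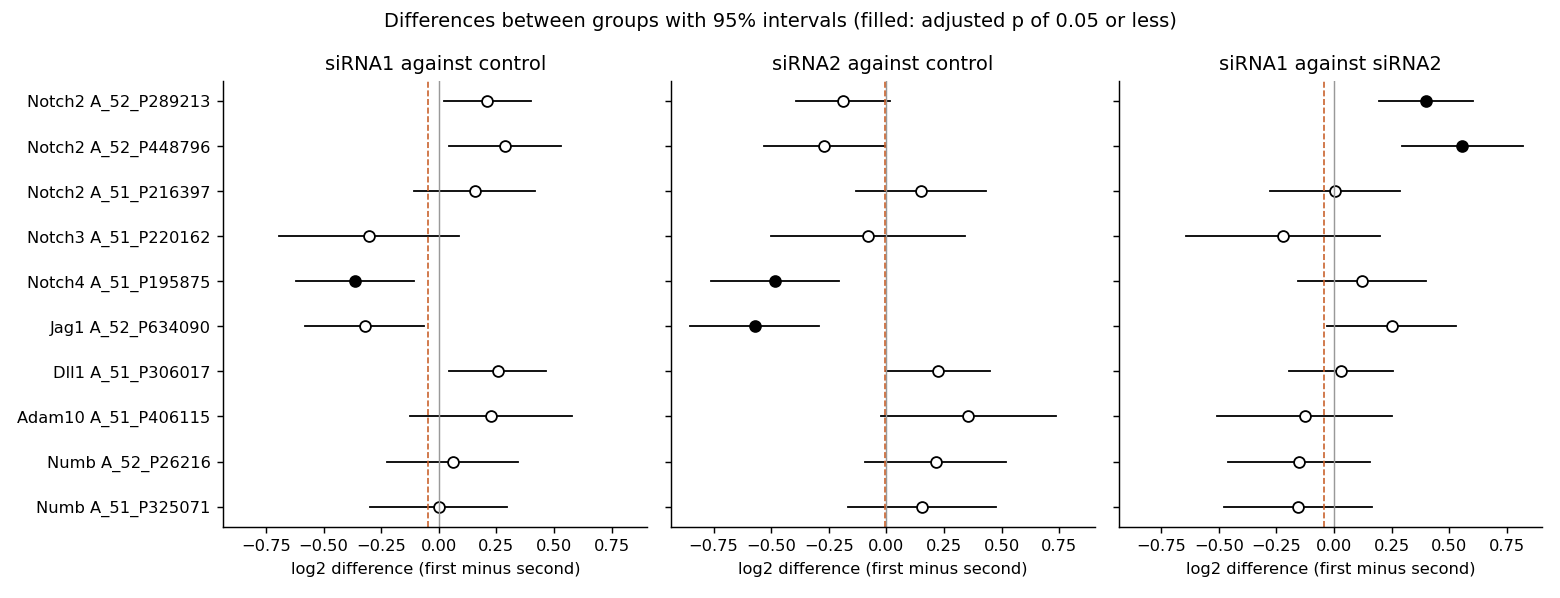
Log2 difference (x axis) of the 10 tested member probes (y axis) in the 3 comparisons, with 95% intervals from the limma fit. Filled points passed at an adjusted p of 0.05 or less, and the dashed line is the median of all tested probes. The filled points are *Notch4* with siRNA1, *Notch4* and *Jag1* with siRNA2, and the first pair of *Notch2* probes between the siRNAs.

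The brightest tested probes of the 7 tested genes were also compared over the 11 arrays, as a description without a test. The points share the arrays, their scaling and the 3 groups. *Dll1* and *Adam10* ran together (Pearson's r = 0.83), and *Notch4* ran against both (r = -0.84 with *Dll1* and -0.72 with *Adam10*). *Notch4* and *Jag1*, which were both lower with siRNA2, had an r of 0.46, and *Notch2* and *Notch3* an r of -0.58.

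Over all 11796 genes compared by their brightest tested probe, those most like *Notch2* over the 11 arrays were *Ebf3* (r = 0.99) and *Fmr1* (r = 0.97). Those most like *Notch4* were *3110040N11Rik* (r = 0.96) and *Izumo4* (r = 0.94). For *Jag1* they were *Prepl* (r = 0.96) and *Me2* (r = 0.96), and for *Notch3* they were *Tuba1c* (r = 0.87) and *Tmem198b* (r = 0.85). The highest of so many correlations over 11 arrays is high by selection, and these names are given as a description only.

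The members were set beside 59 further genes of the pathway, of which 52 had a probe and 40 had a tested probe (59 tested probes). With siRNA1, 11 of these probes passed as higher and 9 as lower (33.9%, beside 27.0% of all tested probes). With siRNA2, 7 passed as higher and 4 as lower (18.6%, beside 18.4%). The median log2 difference of the list was 0.021 with siRNA1 and 0.084 with siRNA2. Of the 59 probes, 6 passed with both siRNAs in the same direction, from *Dtx4*, *Aak1*, *Hes6*, *Hey1* and *Mamld1*. The share of all tested probes that did so was not counted, and both comparisons share the control arrays. Counts of probes passing with both siRNAs are therefore a description only. The *Hey1* probe entered the test through the siRNA groups, since no control array measured it above background, and of the 54 probes above background on all arrays 5 passed with both. A further 14 of the 59 passed with siRNA1 and not siRNA2, and 5 with siRNA2 and not siRNA1, which does not show that the siRNAs differed. With the slide as a block, 11 probes passed with both siRNAs in the same direction, and probes of *Dll3*, *Dlk1*, *Dtx2*, *Dtx4* and *Hes6* were those gained. That setting also raised the share of all tested probes that passed, to 35.8% with siRNA1 and 25.5% with siRNA2. Without siRNA1 array 3, 13 probes passed with siRNA1, where 20.4% of all tested probes did.

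Among the further ligands, *Dll3*, a Delta-like protein that lacks activating function, fell by 0.55 with siRNA1 (adjusted p = 0.00757) and stood at -0.40 with siRNA2 (adjusted p = 0.0670, with the slide as a block 0.0233). *Dlk1*, a membrane protein related to the Delta-like ligands, rose by 0.53 with siRNA2 (adjusted p = 0.0478) and stood at 0.32 with siRNA1 (adjusted p = 0.157, with the slide as a block 0.0197). The further processing proteases *Adam17* and *Furin* had 3 tested probes, none of which passed, with differences of -0.11 to 0.35. With the slide as a block *Furin* passed with siRNA1 (0.29, adjusted p = 0.00997).

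The gamma-secretase complex, which makes the cut within the membrane, had 9 tested probes of 6 genes. With siRNA1, 3 fell and none rose (33.3%, beside 27.0% of all tested probes). With siRNA2 none passed (beside 18.4% of all tested probes), with differences of -0.21 to 0.18. *Aph1c* fell by 0.64 with siRNA1 (SE 0.10, adjusted p = 0.000881) and *Psen2*, a catalytic subunit, fell by 0.38 (SE 0.10, adjusted p = 0.0188). Of the 3 probes of *Aph1b*, 1 passed with siRNA1 (-0.29, adjusted p = 0.0380). The genes *Aph1b* and *Aph1c* are near-identical copies, so their probes may share signal. The difference between the siRNAs passed for *Psen2* (-0.47, adjusted p = 0.0101), *Aph1c* (-0.43, adjusted p = 0.0155) and the same *Aph1b* probe (-0.47, adjusted p = 0.00541).

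The enzymes that glycosylate Notch receptors had 4 tested probes. With siRNA1, 2 fell (50%, beside 27.0% of all tested probes), and none passed with siRNA2 (beside 18.4%). *Pofut1*, which adds O-fucose to the receptors, fell by 0.53 with siRNA1 (SE 0.14, adjusted p = 0.0188). *Poglut1*, which adds O-glucose, fell by 0.40 (SE 0.11, adjusted p = 0.0166). Both differed between the siRNAs, by -0.48 (adjusted p = 0.0433) and -0.60 (adjusted p = 0.00313).

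Proteins of ligand and receptor ubiquitination and endocytosis had 18 tested probes. With siRNA1, 6 rose and none fell (33.3%, beside 27.0% of all tested probes). With siRNA2, 5 rose and 1 fell (33.3%, beside 18.4%). *Dtx4*, a ubiquitin ligase of the Deltex family, was higher by 2 probes with both siRNAs, by 0.65 and 0.71 with siRNA1 and by 0.92 and 0.86 with siRNA2. Its remaining probe passed with siRNA1 (0.74, adjusted p = 0.0128) and not with siRNA2 (0.63, adjusted p = 0.0503, with the slide as a block 0.00264). *Aak1*, a kinase of clathrin-mediated endocytosis, rose by 1 of 3 probes (0.35 and 0.76), while the others stood between -0.53 and 0.26 and did not pass, though 1 of them passed as lower with siRNA2 with the slide as a block (-0.57, adjusted p = 0.0222). With siRNA1, *Dtx2* rose by 0.38 (adjusted p = 0.0353), beside 0.33 with siRNA2 (adjusted p = 0.0956, with the slide as a block 0.0307). *Mib1*, a ubiquitin ligase for Notch ligands, rose by 0.35 with siRNA1 (adjusted p = 0.0139), beside 0.084 with siRNA2 (adjusted p = 0.635). The siRNAs were not shown to differ for *Dtx2* (0.040, adjusted p = 0.855) or *Mib1* (0.26, adjusted p = 0.0711). With siRNA2, *Fbxw7*, which marks the freed Notch fragment for breakdown, rose by 0.56 and 0.64 over its 2 probes, both of which differed between the siRNAs (adjusted p = 0.0146 and 0.00776). *Neurl2* fell to 46.6% of control with siRNA2 (adjusted p = 0.000148) and stood at 117% with siRNA1 (adjusted p = 0.175, with the slide as a block 0.0370).

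The nuclear complex and its corepressors had 15 tested probes. With siRNA1, 3 rose and 2 fell, *Mamld1* among the latter (33.3%, beside 27.0% of all tested probes). *Mamld1* alone passed with siRNA2 (6.67%, beside 18.4%). *Rbpj*, the DNA-binding partner of Notch, rose by 0.40 with siRNA1 (SE 0.11, adjusted p = 0.0220, exact permutation p = 0.0571). It stood at 0.20 with siRNA2 (adjusted p = 0.307), and the siRNAs were not shown to differ (0.20, adjusted p = 0.280). *Maml1*, a Mastermind-like coactivator, rose by 0.62 with siRNA1 (SE 0.16, adjusted p = 0.0137) and stood at -0.29 with siRNA2 (adjusted p = 0.292), and the siRNAs differed by 0.91 (adjusted p = 0.00270).

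Of the genes of the Hes and Hey families, whose dependence on Notch was not tested here, 8 probes were tested. With siRNA1, 2 rose and 1 fell (37.5%, beside 27.0% of all tested probes). With siRNA2, 1 rose and 2 fell (37.5%, beside 18.4%). *Hey1*, which entered the test only through the siRNA groups, is counted among the rises with siRNA1 and is the only rise with siRNA2. Both falls with siRNA2 are probes of *Hes6*. These shares are therefore a description only. *Hes6* fell by 0.43 with siRNA1 and by 0.61 with siRNA2 by 1 of its probes, and the other passed with siRNA2 (-0.55, adjusted p = 0.00765) and stood at -0.30 with siRNA1 (adjusted p = 0.0630, with the slide as a block 0.0204). *Hey1* was above background on no control array and on all 7 siRNA arrays, which makes it at least 1.32-fold higher for siRNA1 and, for siRNA2, at least 1.61-fold higher. It was tested only because the siRNA arrays measured it, so no p-value is given as support. These bounds set the mean of the siRNA arrays against the lowest signals that were called well above background on the control arrays. *Hes1* rose by 0.54 with siRNA1 (SE 0.12, adjusted p = 0.00605) and stood at 0.12 with siRNA2 (adjusted p = 0.599), and the siRNAs differed by 0.42 (adjusted p = 0.0352).

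**Figure D5:**
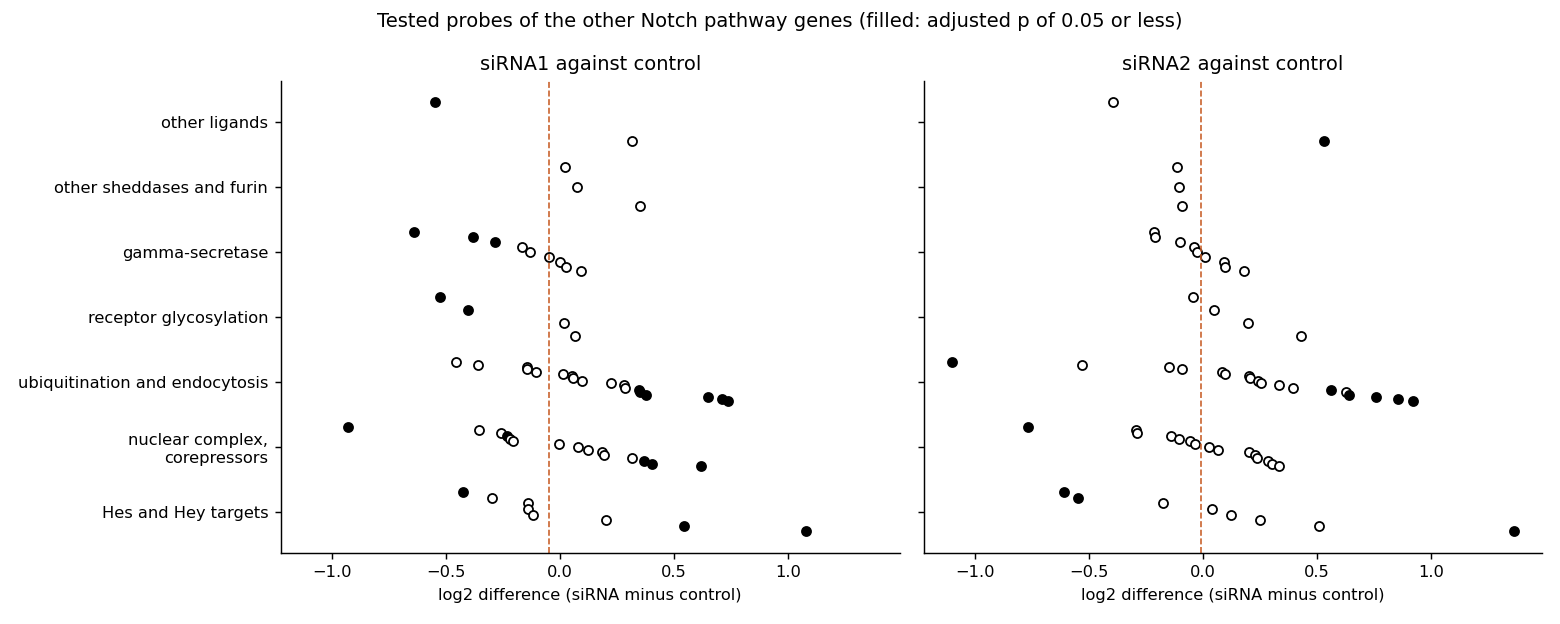
Log2 difference from control (x axis) of the 59 tested probes of the further pathway genes, by list (y axis), with siRNA1 at the left and siRNA2 at the right. Filled points passed at an adjusted p of 0.05 or less, the dashed line is the median of all tested probes, and points of a list are spread vertically for sight only. The 3 filled gamma-secretase points at the left have no filled counterpart at the right. Of all tested probes, 27.0% passed with siRNA1 and 18.4% with siRNA2.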

How the data were processed

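Signal intensities of 11 single-color arrays were deposited, 1 sample each, with no pooling stated. Per the file headers, the authors' intensity values were made with Feature Extraction 9.5.1.1 (9.5 in the submitters' processing notes), which corrected each array for local background and for spatial trend but not against the other arrays. A deposited table of group averages for probes the authors selected in GeneSpring GX was not used.

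Intensities were converted to log2 and the 75th percentile over 43379 non-control spots was subtracted from each array. Outlier spots were dropped and replicate spots averaged. The test covered 24250 of 41174 probes, those called well above background throughout at least 1 group, with lmFit, contrasts.fit and eBayes of limma 3.58.1 (R 4.3.3) in 3 comparisons, checked on simulated data. Accessions named 24375 probes through RefSeq names of GRCm38.p6. The array was annotated on an older build, so no probe coordinates are given. No member spot was marked as an outlier or saturated. The precision is limited by the number of arrays.

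The members, gene lists and tests were chosen with earlier results of these data known. All members are named, with further pathway genes that passed with both siRNAs in the same direction and up to 2 per list and siRNA, by size of the log2 difference, that passed with 1 siRNA. The arrays lay on 3 slides, each with all groups. Alternatives were background correction, scaling, probe filter, outlier spots, slide and replicate blocks, separate fits, eBayes options, the methods' t-test, 1 value per gene, a 2-fold minimum and leaving out each array.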

Additional observations from a re-analysis of the deposited data

Results flagged for a closer look

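Levels with siRNA1 and siRNA2 differed past the threshold for 2 of the 3 *Notch2* probes, by log2 values of 0.40 by A_52_P289213 and 0.56 by A_52_P448796, with siRNA1 above and siRNA2 below control in the mean. In 3 groups, 1 array stood apart from the others, measured as its gap to the nearest array divided by the range of the group. For *Notch2* A_52_P448796 with siRNA1 this was 0.850, from array 2 at 114% of control beside 124 to 126% on the others. For *Dll1* with siRNA1 it was 0.839, from array 4 at 114% beside 120 to 122%. For *Numb* A_52_P26216 in the control group it was 0.956, from array 2 at 78.3% beside 108 to 109%. About 1 in 20 groups is marked in this way by chance.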

How the results depend on the processing

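Of 480 values of single member probes under other processing, 415 kept their direction and their side of the threshold or moved by less than 1 SD. A further 10 lost a call, 12 gained a call, 16 changed sign and 27 (all within single slides) moved by more. Within single slides, probes that had not passed were sorted by the size of the move alone. Their sign changes there are not among the 16, such as *Notch3* with siRNA1 at 0.061 on slide 1, beside -0.30 over all arrays. Of 84 counts of passing probes, 59 stayed within 1.5 times. The number of passing member probes with siRNA1 was 1 as reported, where 27.0% of all probes passed. It was 0 with normexp background correction (1.57% of all probes), median scaling (21.2%) and no filter on dim probes (13.6%). The methods' t-test after the Benjamini-Hochberg adjustment (23.2%) and a minimum of 2-fold (2.99%) also gave 0. It was 2 with quantile normalization (27.1%) and with 1 value per gene (share not counted). It was 3 with normexp after extreme local backgrounds were replaced (30.7%), and 4 with the slide as a block (35.8%). With siRNA2 it was 2 as reported (18.4% of all probes), 0 with normexp (0.507%) and 2-fold (2.25%), and 1 without the filter (7.8%). It was also 0 with the methods' t-test (11.8%), with adjusted p = 0.0675 for *Jag1* and 0.0922 for *Notch4*. By that test *Notch4* had an adjusted p of 0.0718 with siRNA1. Between the siRNAs it was 2 as reported (23.5% of all probes), 0 with normexp (0.334%) and 2-fold (3.36%), and 1 with 1 value per gene. The 20 further pathway probes that passed with siRNA1 became 0 with normexp and 1 at 2-fold. The 11 with siRNA2 became 1 with normexp, 7 with the t-test and 2 at 2-fold. The 12 between the siRNAs became 1 with normexp, 7 with the t-test and 1 at 2-fold. The shares of all probes are those just given, with 16.6% between the siRNAs by the t-test. Without each array in turn, the member counts ranged from 0 to 2, from 1 to 4 (4 without control 2) and from 1 to 2. The further counts ranged from 13 to 19, from 9 to 12 and from 8 to 13. The shares of all probes that passed then ranged from 20.4 to 27.1%, from 12.2 to 18.1% and from 17.3 to 23.1%. Normexp moved the median of all probes to 0.22 with siRNA1, 0.17 with siRNA2 and 0.11 between the siRNAs, and the cause of its lost calls was not tested.

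Signs changed with normexp for *Notch2* A_52_P289213 (-0.098, siRNA1) and A_52_P448796 (0.24, siRNA2), *Notch3* (0.62, 0.44 and 0.18 in the 3 comparisons), *Notch4* (0.13, siRNA1), and between the siRNAs for *Adam10* (0.26) and *Numb* (0.22 and 0.095). They changed with replaced backgrounds for *Notch2* A_51_P216397 (-0.15, -0.041 and -0.11), and with siRNA1 for *Adam10* (-0.0023) and *Numb* (-0.13 and -0.036), and with 1 value per gene for *Notch2* A_51_P216397 with siRNA2 (-0.10). None of these had passed except *Notch4*. Median and quantile scaling changed no member's sign. Leaving out 1 array, signs changed for *Notch2* A_51_P216397 between the siRNAs (-0.093 to 0.091), *Notch3* with siRNA2 (-0.25 to 0.15), *Dll1* (-0.029 to 0.077) and *Adam10* (-0.24 to 0.046) between the siRNAs, and *Numb* with siRNA1 (-0.078 to 0.11 and -0.057 to 0.14), none of which had passed.

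Replicate numbers were not taken to pair the samples in the main fit, since not every pair correlated above 0.1. Deviations of arrays with the same number correlated at -0.18 to 0.53 (10 pairs, median 0.30), beside a median of -0.10 for different numbers (30 pairs). This does not exclude a pairing. With the replicate block, 3 member probes passed with siRNA1, where 34.6% of all probes did, *Notch2* A_52_P448796 (adjusted p = 0.0229) and *Dll1* (adjusted p = 0.0370) among them. Arrays of the same slide correlated at -0.072 to 0.53 (13 pairs, median 0.30), beside a median of -0.12 for different slides (27 pairs). By the median, arrays of a slide thus ran more alike, which the main fit leaves out. With the slide as a block in the limma fit, *Jag1*, *Dll1* and *Notch2* A_52_P289213 passed with siRNA1 (adjusted p = 0.0282, 0.0307 and 0.0315). In that setting 35.8% of all probes passed with siRNA1. Signal over background limits *Notch1*, *Jag2* and the second *Jag1* probe.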
